A study of Mus musculus with 18 samples.

Results

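The lysyl oxidase family of the mouse has 5 genes, Lox, Loxl1, Loxl2, Loxl3 and Loxl4, and all 5 were present among the 33440 genes obtained when estimated reads were summed over transcripts. The family was chosen by name, with its read levels and differences between groups in these same libraries already in view. The levels and fold changes of the 5 genes are therefore given as a description, without p-values, and how many of them were called is given beside the share of all genes with nothing read from it. Bulk RNA-seq was performed on 18 libraries from C57BL/6 mice in 2 experiments on interferon regulatory factor 3 (IRF3), a transcription factor of innate immunity. In the first, stromal vascular fraction (SVF) cells from inguinal fat (iWAT) of IRF3-2D mice aged 4 to 6 weeks, whose constitutively active Irf3 allele is switched on by Cre, were differentiated and transduced on day 6 with AAV-GFP-Cre (FI3OE, 3 libraries) or AAV-GFP (WT, 3 libraries), and RNA was taken on day 8. Both groups carry the IRF3-2D allele, and FI3OE differs from WT in the presence of Cre as well as in the active allele. In the second, adipocyte RNA was pulled down from epididymal fat (eWAT) by translating ribosome affinity purification (TRAP) from adipocyte Irf3 knockout mice (FI3KO, 6 libraries) and controls (WT, 6 libraries) after 8 weeks of high-fat diet in thermoneutrality. The GFP-tagged ribosomes of the NuTRAP reporter and, in FI3KO, the deletion depend on Cre driven by the Adipoq promoter, so controls carry Adipoq-Cre and the reporter as well. For its diet studies the methods give male mice that started a diet with 60% of energy from fat at 8 weeks of age and were kept at 30 °C. The sources used here do not say whether a library is 1 animal or culture or a pool, so the spread between libraries may be partly technical.

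Lysyl oxidases are secreted copper enzymes that oxidise lysine side chains of collagen and elastin, and the aldehydes that form then join into the crosslinks that make these fibres stiff and insoluble. Lox and Loxl1 carry a propeptide that is cut off outside the cell by Bmp1 and related proteases, and both are best known from elastic and collagen fibres. Loxl2, Loxl3 and Loxl4 carry scavenger receptor domains in place of that propeptide. In fat tissue the family is known for its part in the fibrosis that accompanies obesity, and Lox is a known target of hypoxia signalling.

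All 5 genes share the stretch that codes for the histidine-rich copper-binding site of the catalytic domain, and it is shown for 4 of them because it is the part by which the family is recognised. In each gene the 60 bases are joined from 2 neighbouring exons, exons 3 and 4 of Loxl1, exons 10 and 11 of both Loxl2 and Loxl3, and exons 11 and 12 of Loxl4. The stretches span chr9:58293693-58294381 on the minus strand (Loxl1), chr14:69682316-69689064 on the plus strand (Loxl2), chr6:83049995-83050152 on the plus strand (Loxl3) and chr19:42598780-42599899 on the minus strand (Loxl4), in GRCm38 with the GENCODE M21 annotation. The sequences are the coding bases, 5′ to 3′, and capitals mark the histidine codons.
Loxl1-201: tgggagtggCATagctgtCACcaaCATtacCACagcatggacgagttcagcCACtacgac
Loxl2-201: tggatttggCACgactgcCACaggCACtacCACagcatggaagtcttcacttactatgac
Loxl3-201: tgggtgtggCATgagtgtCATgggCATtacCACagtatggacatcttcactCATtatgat
Loxl4-201: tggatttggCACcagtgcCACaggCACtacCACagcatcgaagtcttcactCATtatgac
The first 4 histidine codons stand at the same places in all 4 stretches because the search pattern required them there. Loxl2 lacks the fifth, where the pattern also allowed tyrosine. Part of the base identity given next was likewise fixed by the pattern. The same stretch of Lox, which is not printed, was identical to that of Loxl1 at 57 of 60 bases and to those of Loxl2, Loxl3 and Loxl4 at 44, 43 and 42 bases. Loxl2 and Loxl4 were the next closest pair with 55 identical bases, while Loxl3 shared 46 with Loxl2 and 47 with Loxl4. The coding sequences of the leading transcripts of Lox and Loxl1 have 1233 and 1821 bases, and those of Loxl2, Loxl3 and Loxl4 have 2328, 2262 and 2271.

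The libraries held between 21541334 and 40490283 estimated reads. Irf3 itself had 90.8 to 100.3 CPM (the reads of a gene relative to all reads of its library) in FI3OE against 56.8 to 58.6 in WT cultures, and 12.4 to 18.8 in FI3KO against 17.2 to 23.2 in WT TRAP, where the ranges overlapped. The gene total does not separate the intact from the recombined allele. All 8 adipocyte markers were detected, with a summed level of 5190 to 5348 CPM in FI3OE and 4822 to 4993 CPM in WT cultures, and of 21382 to 23674 CPM in FI3KO and 25582 to 30751 CPM in WT TRAP RNA. The lower sum in FI3KO rests on the leptin gene Lep, which had 2975 CPM there and 9581 CPM in WT TRAP RNA on average. The cultures also held markers of other cell types, with 9 macrophage markers (such as Lyz2 and Mrc1) at 1898 to 2139 CPM and 8 fibroblast and preadipocyte markers (such as Pdgfra and Dcn) at 1296 to 2373 CPM. In TRAP RNA the same 2 lists summed to 13.03 to 94.0 CPM and 42.2 to 93.0 CPM, and no marker of any of the 6 lists was at 0 in all libraries of a group. In bulk RNA, fewer cells of a type and less RNA per cell cannot be told apart.

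Per transcript length, Lox was the most abundant member in all 4 groups and Loxl3 or Loxl4 the least. In WT cultures Lox had 1154 ± 27.5 TPM (Salmon's abundance of a transcript corrected for its length, mean ± SD, n = 3), followed by Loxl2 with 253 ± 4.77, Loxl1 with 234 ± 6.42, Loxl3 with 38.1 ± 1.69 and Loxl4 with 10.3 ± 0.823. No 2 neighbours in that order overlapped over the libraries. Lox made up 68.3% of the summed TPM of the family there, and the family as a whole had 1648 to 1719 TPM per library.

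In FI3OE cultures the order was the same, but Loxl1 and Loxl3 were no longer separated. Loxl1 had 206 ± 7.35 TPM and Loxl3 had 193 ± 12.6 TPM (n = 3 each). Loxl3 held 9.51% of the family's TPM in FI3OE and 2.25% in WT, and Loxl4 stayed last with 12.8 ± 0.937 TPM. The family had 1982 to 2048 TPM per library, above all WT cultures.

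In WT TRAP RNA Lox again led, with 90.3 ± 15.0 TPM (n = 6), or 71.7% of the family. Loxl1 (16.4 ± 4.81), Loxl4 (10.6 ± 2.64) and Loxl2 (8.54 ± 4.09) overlapped with their neighbours in the order, and Loxl3 was last at 0.746 ± 0.296 TPM. By its mean Loxl4 thus ranked above Loxl2 and Loxl3 in TRAP RNA and below all others in the cultures. In FI3KO the order of the means was that of WT TRAP, with Lox at 36.2 ± 6.15, Loxl1 at 6.11 ± 2.63, Loxl4 at 3.23 ± 1.05, Loxl2 at 2.80 ± 1.73 and Loxl3 at 0.658 ± 0.377 TPM (n = 6 each). Loxl1, Loxl4 and Loxl2 overlapped there too, and the highest Loxl2 library (5.72 TPM) was above the highest of Loxl4 (4.13 TPM). The summed level of the family was 42.6 to 67.4 TPM in FI3KO and 97.3 to 154 TPM in WT. The plot of TPM by group shows these levels. Cultures and TRAP samples differ in fat depot, age, diet and RNA isolation, which cannot be told apart.

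**Figure D1:**
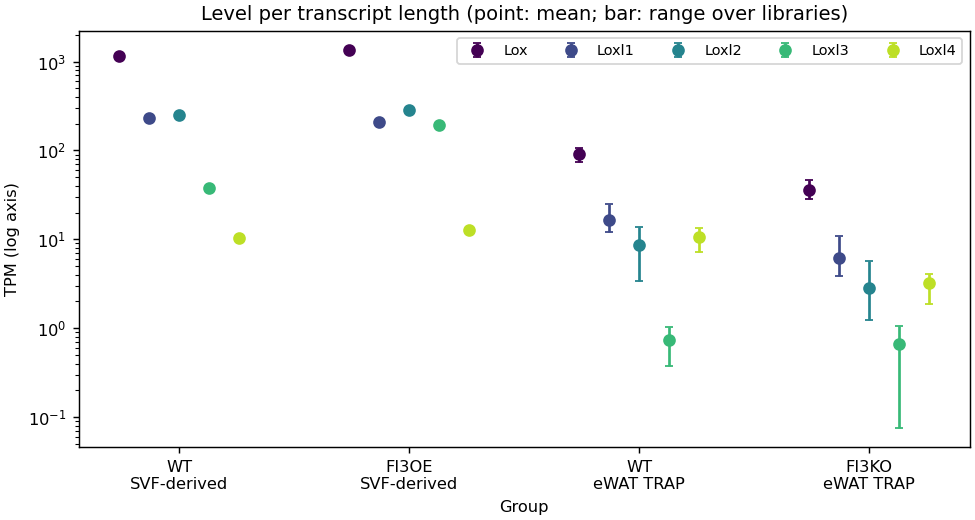
Level of each lysyl oxidase gene per transcript length (TPM, log axis) in the 4 groups, as the mean (point) and the range over libraries (bar, 3 libraries for each SVF-derived group and 6 for each TRAP group). Lox is highest in every group, and Loxl3 in FI3OE cultures sits beside Loxl1 at 193 and 206 TPM.

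The comparison of FI3OE with WT cultures asked how active IRF3 changes the adipocyte transcriptome. The member that stood apart was Loxl3, and the other 4 differed little. Its CPM in the FI3OE libraries were 302, 332 and 299, and in the WT libraries 56.4, 61.2 and 61.0. Every FI3OE culture held several times the Loxl3 of every WT culture, a log2 fold change of 2.40 (SE 0.06, 5.29-fold), which ranked 22 from the top among the 16105 genes tested. Loxl3 codes for a matrix oxidase needed for normal palate and spine formation in mice. Leaving out any library, or changing the normalisation, filter or test, gave values from 2.34 to 2.43. Loxl3 was the only member that passed both cutoffs of the study, an adjusted p of 0.05 or less and an absolute log2 fold change of 1 or more, which 1.99% of all genes tested passed in the higher and 1.63% in the lower direction.

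Lox, the family's most abundant enzyme and an elastin and collagen crosslinker, had 3741, 3821 and 3854 CPM in FI3OE and 3138, 3186 and 3297 CPM in WT. The groups did not overlap, and the log2 fold change was 0.26 (SE 0.03, 1.20-fold). Loxl2, which crosslinks basement membrane collagen IV, had 507, 581 and 541 CPM in FI3OE and 468, 468 and 488 CPM in WT, with a log2 fold change of 0.21 (SE 0.05). Its groups lay close together without touching. Loxl4, the least abundant, had 20.7, 18.9 and 22.0 CPM in FI3OE and 13.8, 16.8 and 15.7 CPM in WT, a log2 fold change of 0.44 (SE 0.08). Loxl1, the enzyme of elastic fibre renewal, was the exception in direction. It had 271, 259 and 277 CPM in FI3OE and 282, 293 and 298 CPM in WT, and all 3 FI3OE libraries were below all WT libraries by a log2 fold change of -0.10 (SE 0.04). This difference did not pass the adjusted p cutoff in the main fit.

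At an adjusted p of 0.05 or less, 4 of the 5 genes were called higher in FI3OE and none lower, in a comparison that called 20.2% of all genes higher and 16.8% lower. The median log2 fold change of the 5 was 0.26 and that of all genes tested was -0.0047. All 5 passed the filter on low counts. Loxl1 was also called, as lower, by DESeq2 and without WT library 1 of the cultures, and when all 18 libraries were fitted together Loxl3 alone was called, where 5.52% of all genes were called higher and 3.57% lower. How many of all genes have groups that do not overlap was not counted, so nothing is read from separate groups. Since the family was picked from this comparison among others, the counts of called members are not evidence about it. Beside them, the summed fibroblast and preadipocyte markers were 2292 to 2373 CPM in FI3OE and 1296 to 1336 CPM in WT, with 3 of 8 called higher (Ly6a by 1.83 on the log2 scale, Cd34 by 0.72 and Thy1 by 0.20) and none lower. Without Ly6a, a surface protein gene (1374 against 390 CPM), the other 7 summed to 919 to 985 CPM in FI3OE and 904 to 954 CPM in WT, which overlap. The macrophage markers were 1898 to 1925 CPM in FI3OE and 2015 to 2139 CPM in WT, with 1 of 9 called higher and 2 lower. This lower sum rests on Mrc1, which had 235 CPM in FI3OE and 436 CPM in WT on average. Of the adipocyte markers, whose sums did not overlap either, Adipoq rose by 0.42 and Plin1 by 0.21, and Lipe fell by 0.19 and Lep by 0.24. The part of these cells in the levels of the lysyl oxidases was not tested.

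**Figure D2:**
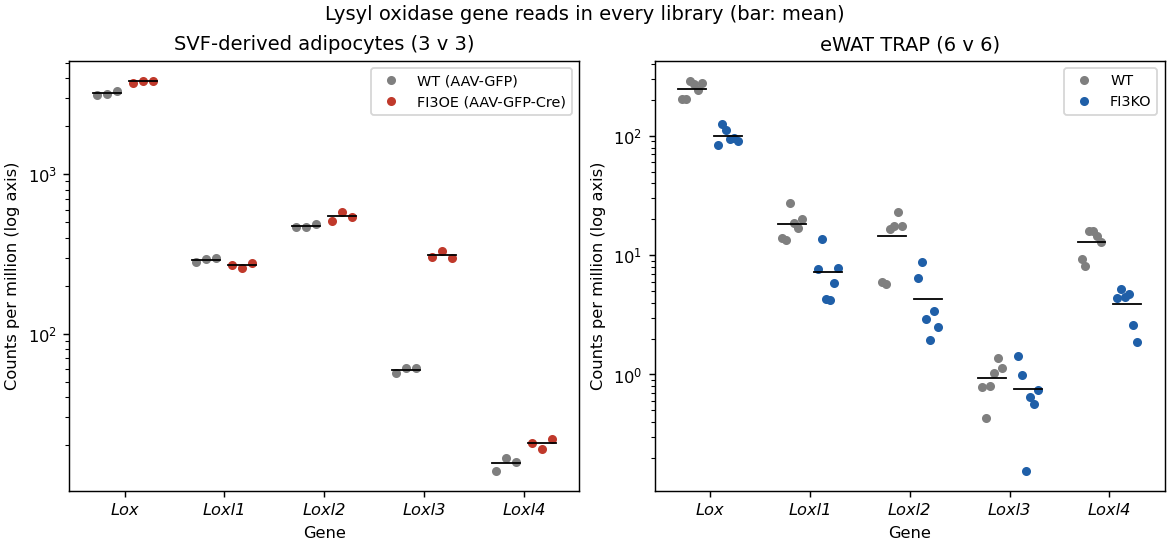
Reads of each lysyl oxidase gene in every library, in CPM on a log axis, for the SVF-derived adipocytes (left, WT grey, FI3OE red) and the eWAT TRAP RNA (right, WT grey, FI3KO blue), with the mean of each group as a bar. In the cultures only Loxl3 shows a wide gap (about 300 against 60 CPM), and in TRAP RNA the Lox and Loxl4 groups do not overlap.

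In FI3KO TRAP RNA all 5 members had negative log2 fold changes, which for Loxl1 was also so in the cultures. Lox and Loxl4 were clearly apart from WT, and Loxl3 was hardly measurable. Lox had 84.2 CPM in the lowest FI3KO library, a median of 95.04 and 125 in the highest, against 203, 258 and 292 in WT. No FI3KO library reached the lowest WT library, and Lox was 2.39-fold lower, a log2 fold change of -1.26 (SE 0.11). The Lox gene lies at chr18:52516067-52529867 on the minus strand (GRCm38). Loxl4 had 1.89, 4.42 and 5.19 CPM (lowest, median, highest) in FI3KO and 8.20, 13.7 and 16.0 CPM in WT. These groups did not overlap either, with a log2 fold change of -1.67 (SE 0.24, 3.19-fold lower).

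Loxl1 had 4.24, 6.76 and 13.6 CPM in FI3KO and 13.3, 17.7 and 27.7 CPM in WT, a log2 fold change of -1.29 (SE 0.28). Its groups overlapped through 1 FI3KO library, and the other 5 were below all WT libraries. Loxl2 had 1.94, 3.17 and 8.70 CPM in FI3KO and 5.70, 17.1 and 22.9 CPM in WT, a log2 fold change of -1.67 (SE 0.43). Here 4 of 6 FI3KO libraries lay below all WT libraries. Loxl3 had 0.155, 0.697 and 1.44 CPM in FI3KO and 0.435, 0.916 and 1.37 CPM in WT, which rests on 4.17 to 36.2 estimated reads per library. The groups overlapped over most of their range, with a log2 fold change of -0.23 (SE 0.41).

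At an adjusted p of 0.05 or less, 4 of the 5 genes (all but Loxl3) were called lower in FI3KO and none higher, where 18.3% of the 13624 genes tested were lower and 19.1% higher. The call of Loxl2 was lost with the replicate number as a block, where its log2 fold change was -1.76. The same 4 also passed the fold cutoff, which 4.87% of all genes passed in the lower and 1.74% in the higher direction. The median of the 5 was -1.29 and that of all genes tested 0.016. The family was picked from this comparison too, so nothing is read from these counts or from which groups do not overlap. The plot of fold changes sets the 2 comparisons side by side. They share no library, and Loxl3 has the highest value of the family in both.

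**Figure D3:**
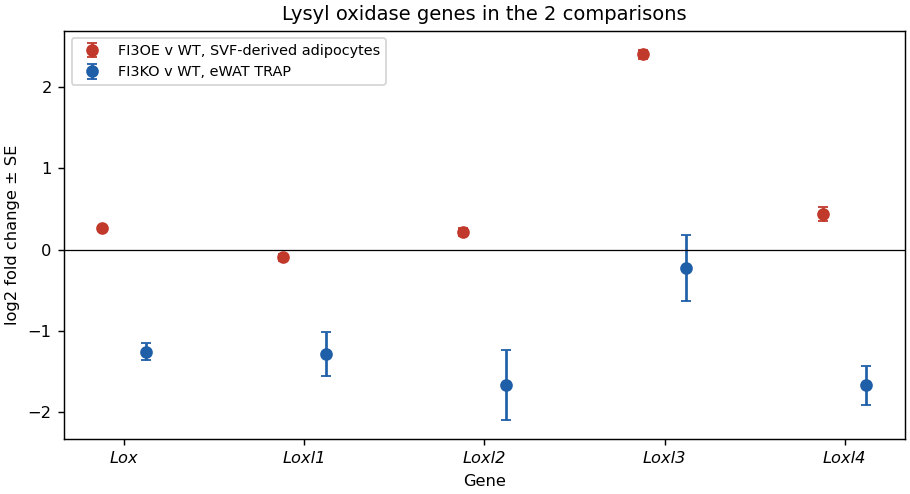
log2 fold change with its standard error for each lysyl oxidase gene in FI3OE against WT SVF-derived adipocytes (red, n = 3 and 3) and FI3KO against WT eWAT TRAP RNA (blue, n = 6 and 6). Loxl3 stands at 2.40 in the cultures and at -0.23 with a wide error in TRAP RNA, while the other 4 lie between -1.26 and -1.67 in TRAP RNA.

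The TRAP libraries numbered 1 and 2 were also compared apart from those numbered 3 to 6, a split that no label names and that was taken up with results of these data known. The median chi-square between 2 WT libraries, as a multiple of counting noise, was 13.1 to 18.7 across the sets and 1.70 to 11.2 within them, and in FI3KO it was 11.9 to 23.3 across and 3.67 to 14.03 within. The 2 ranges were separate in WT and overlapped in FI3KO. Of the 5 genes Loxl2 had the fold changes farthest apart in the 2 sets. In libraries 1 and 2 it had 6.51 and 8.70 CPM in FI3KO and 5.93 and 5.70 CPM in WT, both FI3KO libraries above both WT libraries, with a log2 fold change of 0.45 from these 4 libraries alone. In libraries 3 to 6 it had 1.94 to 3.39 CPM in FI3KO and 16.7 to 22.9 CPM in WT, a log2 fold change of -2.74. The fold change of Loxl2 thus had opposite signs in the 2 sets, a difference that was not tested.

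Loxl3 also changed sign, with 1.07 in libraries 1 and 2 and -0.97 in libraries 3 to 6, on 4.17 to 36.2 reads. Lox kept its direction, with -0.90 in libraries 1 and 2 (84.2 and 125 CPM against 205 and 203) and -1.42 in libraries 3 to 6 (91.5 to 112 against 244 to 292). Loxl4 did the same with -0.81 and -2.08, and Loxl1 had -0.30 and -1.85. With libraries 1 and 2 alone, on 2 libraries a group, none of the 5 was called, where 1.98% of all genes were called lower and 1.58% higher. With libraries 3 to 6 alone the same 4 were called lower as over all libraries, where 24.8% of all genes were called lower and 25.7% higher, and nothing is read from these counts.

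The sets also differed in markers. The macrophage markers summed to 32.9 to 42.6 CPM in FI3KO and 36.9 to 37.3 CPM in WT in libraries 1 and 2, and to 13.03 to 16.2 and 68.1 to 94.0 CPM in libraries 3 to 6. Over all 12 libraries 7 of 8 macrophage markers tested fell in FI3KO (edgeR, adjusted over all genes) and none rose, for example Lyz2 by 1.60 and Cd74 by 1.72 on the log2 scale. The smooth muscle and pericyte markers, 4 genes led by Acta2, summed to 199 to 373 CPM in FI3KO and 521 to 744 CPM in WT, and Acta2 alone fell, by 1.18. Lyz2 had -0.15 in libraries 1 and 2 alone (edgeR adjusted p = 0.566) and -2.41 in libraries 3 to 6, and Cd74 had -0.70 (adjusted p = 0.0534) and -2.23. The other macrophage markers with values in both sets had opposite signs in them. In libraries 1 and 2 alone Adgre1 had 0.79, Csf1r 0.80, Mrc1 0.50, C1qa 0.41, C1qb 0.23 and Ptprc 0.03, none of them called. In libraries 3 to 6 these genes had -2.96, -2.18, -2.38, -2.08, -2.15 and -2.63. The fibroblast and preadipocyte markers summed to 60.9 to 93.0 CPM in FI3KO and 42.2 to 57.4 CPM in WT. Dcn, a matrix proteoglycan gene (68.5 against 27.3 CPM on average), rose by 1.36 there, while Dpp4 had a log2 fold change of -1.503 and Ly6a one of -0.87, all of them called. Without Dcn the other 7 summed to 9.11 to 26.4 CPM in FI3KO and 15.1 to 28.5 CPM in WT, which overlap. In libraries 1 and 2 alone Dcn had 0.36, Dpp4 -0.14 and Ly6a 0.41, none of them called, and Pdgfra 1.06 (edgeR adjusted p = 0.0499). In libraries 3 to 6 Dcn had 1.98, Dpp4 -2.10, Ly6a -1.52 and Pdgfra -0.97. Ly6a and Pdgfra thus had opposite signs in the 2 sets, as did Pi16 (0.86 and -1.55), Cd34 (0.67 and -0.56) and Lum (0.69 and -0.76). Of the 8 adipocyte markers 3 were called higher and 1 lower, although their summed level was lower in every FI3KO library than in every WT library. That lower sum rests on Lep, the leptin gene, which had 2975 CPM in FI3KO and 9581 CPM in WT on average. Lep fell by 1.63, while Cebpa rose by 0.51, Fabp4 by 0.30 and Plin1 by 0.26. Adipoq and Plin1 had -0.37 and -0.04 in libraries 1 and 2 alone, and 0.90 and 0.40 in libraries 3 to 6. The part of all these markers in the lysyl oxidase levels was not tested. In libraries 1 and 2 the smooth muscle and pericyte markers summed to 361 to 373 CPM in FI3KO and 521 to 527 CPM in WT, and 5 endothelial markers to 36.2 to 66.7 and 22.8 to 25.0 CPM. In libraries 3 to 6 the former summed to 199 to 248 and 542 to 744 CPM, and the latter to 16.0 to 24.3 and 15.3 to 27.7 CPM, which overlap. Acta2 had -0.49 in libraries 1 and 2 alone, where Myh11 had 0.88 and Rgs5 1.38, neither of them called. In libraries 3 to 6 Acta2 had -1.58, Myh11 -1.14 (edgeR adjusted p = 0.001) and Rgs5 -0.37 (adjusted p = 0.495). Over all 12 libraries none of 4 endothelial markers tested was called. In libraries 1 and 2 alone Kdr was called, with 1.35 (edgeR adjusted p = 0.0467), and the other endothelial markers were not.

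**Figure D4:**
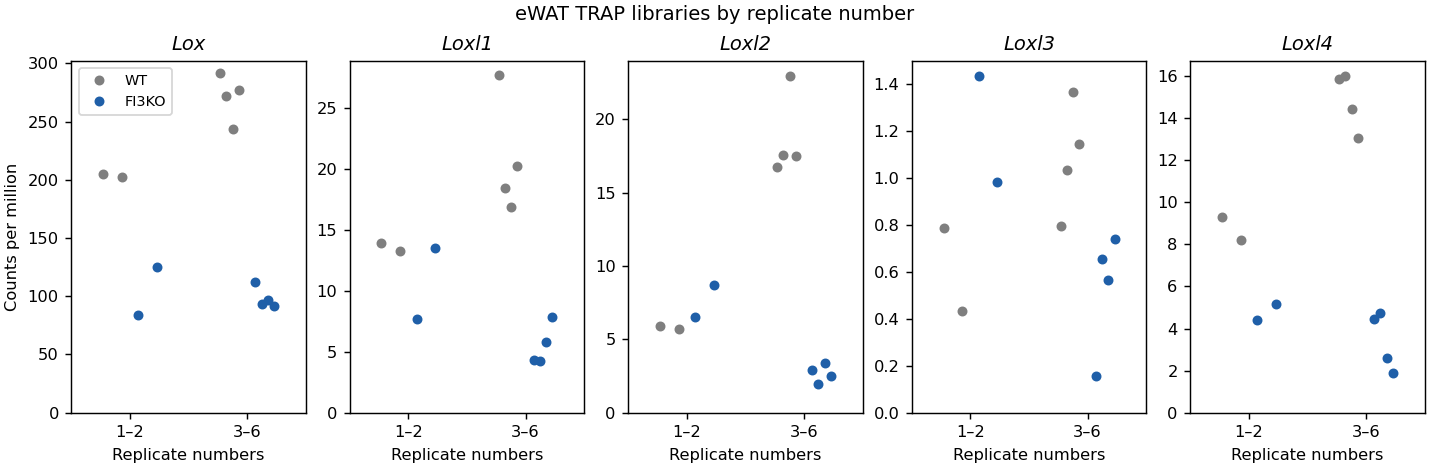
CPM (linear axis from 0) of each lysyl oxidase gene in the eWAT TRAP libraries, split into replicate numbers 1 and 2 and 3 to 6, with WT in grey and FI3KO in blue. Loxl2 is at 6.51 and 8.70 in FI3KO and below 6 in WT in the first set and separates the other way in the second, while Lox and Loxl4 are lower in FI3KO in both.

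Which transcripts carried the reads was a measure that had not been used to choose the genes. Loxl1 has a single transcript in the files. Loxl3-201, which codes for the full protein, held 95.1% to 95.8% of the Loxl3 reads in FI3OE and 94.6% to 96.4% in WT cultures, and Loxl3-204, a retained-intron transcript that overlaps the copper-site exons shown above, held 2.79% to 3.63% and 2.62% to 3.64%. Both transcripts were therefore higher in FI3OE in like proportion. Lox-201 held 90.2% ± 1.25 of the Lox reads in FI3OE and 89.3% ± 4.56 in WT cultures (SD, n = 3 each; two-sided exact permutation test, p = 0.8). For Loxl2, the longer transcript Loxl2-201 held 50.5% ± 0.383 and 51.4% ± 1.03 (n = 3 each; exact permutation test, p = 0.3). With 3 libraries a group this test cannot go below 0.1, so neither share could have passed.

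In TRAP RNA the shorter coding transcript, Loxl2-202, held 67.4% ± 8.64 of the Loxl2 reads in FI3KO and 54.0% ± 5.61 in WT (SD, n = 6 each; two-sided exact permutation test, p = 0.013). After adjustment over the 4 shares tested its p was 0.0519 by the exact permutation test (n = 6 each), which misses 0.05. The share was higher in FI3KO in both sets, with means of 69.9% against 58.0% in libraries 1 and 2 and 66.2% against 51.9% in libraries 3 to 6. Loxl4-201 held 64.5% ± 13.8 of the Loxl4 reads in FI3KO and 72.8% ± 9.47 in WT (n = 6 each; exact permutation test, p = 0.253). These shares rest on estimated reads, 62.7 to 610 per library for Loxl2, which Salmon divides between overlapping transcripts.

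Loxl3 has close neighbours on chromosome 6, and these were tested as genes outside the family. Dok1, an adaptor that restrains tyrosine kinase signalling, starts upstream of Loxl3 and is read away from it, and it rose in FI3OE from 20.3 ± 1.25 to 64.6 ± 5.00 CPM (log2 fold change 1.69, SE 0.07, edgeR adjusted p = 1.05e-08). Htra2, a mitochondrial protease gene that overlaps the 3′ end of Loxl3 on the other strand, rose by 0.56 (SE 0.06, edgeR adjusted p = 1.5e-05), and Aup1, a lipid droplet and endoplasmic reticulum protein gene further on, rose by 0.23 (SE 0.04, edgeR adjusted p = 0.00141). All 3 genes were higher in FI3OE by less than Loxl3. The library kit does not mark strand, so reads from the stretch shared by Loxl3 and Htra2 cannot be assigned to one of them. In TRAP RNA Dok1 fell by 0.30 in FI3KO (edgeR adjusted p = 0.0202), and Htra2 and Aup1 had log2 fold changes of 0.18 and 0.02, which did not pass (adjusted p = 0.052 and 0.846). Lox is overlapped at its start by the antisense gene AC161119.1, whose level in the cultures was 1.76 CPM in FI3OE and 0.605 CPM in WT, far below that of Lox.

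Lysyl oxidases need proteases to release Lox from its propeptide and a copper supply. In FI3KO 5 of 7 genes tested of this list fell and none rose, with a median log2 fold change of -0.66, where 18.3% of all genes were called lower and 19.1% higher and the median of all was 0.016. Bmp1, the procollagen C-proteinase that cuts pro-Lox, fell from 68.3 to 33.8 CPM (log2 fold change -0.96, SE 0.13, edgeR adjusted p = 0.000307), Adamts2, a procollagen N-proteinase, fell by 0.72 (adjusted p = 0.000389), and Slc31a1, the copper importer, fell by 0.66 (adjusted p = 0.000163). In libraries 1 and 2 alone 1 of the list was called lower (Adamts2, -0.56), where Bmp1 had -0.43 with an edgeR adjusted p of 0.112 and Slc31a1 had -0.49 with one of 0.066. In FI3OE 3 of 7 rose and 2 fell, all by small amounts, where 20.2% of all genes were called higher and 16.8% lower (median 0.15, all genes -0.0047). The copper chaperone Atox1 rose by 0.35 (edgeR adjusted p = 0.000755) and the Golgi copper pump Atp7a, which loads secreted enzymes, rose by 0.27 (adjusted p = 9.79e-05), while Slc31a1 fell by 0.34 (adjusted p = 8.99e-05). Aoc3, an adipocyte copper amine oxidase outside the family, fell by 0.26 in FI3OE (edgeR adjusted p = 0.00045) and rose by 0.32 in FI3KO (adjusted p = 0.024). Aoc3 had -0.10 in libraries 1 and 2 alone (edgeR adjusted p = 0.332) and 0.53 in libraries 3 to 6, so its direction turned between the sets. The FI3KO call of Aoc3 was lost without FI3KO library 5 or 6 or WT library 3, 5 or 6.

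Of 13 elastic fibre genes, 6 rose and 3 fell in FI3OE (median log2 fold change 0.20), where 20.2% of all genes were called higher and 16.8% lower, so that the count that fell is near the background. Efemp1 (fibulin-3) rose by 0.89 (edgeR adjusted p = 1.69e-08), while Ltbp4, which binds latent TGF-beta and organises elastin, fell by 0.89 (adjusted p = 4.02e-05) and Eln, elastin itself, fell by 0.85 from 29.8 to 16.4 CPM (adjusted p = 5.04e-06). In FI3KO 3 of 10 elastic fibre genes tested fell and none rose (median -0.43, against 18.3% of all genes lower and 19.1% higher), with Fbn1, the microfibril protein fibrillin-1, at -1.36 (SE 0.39, edgeR adjusted p = 0.0162). Fbn1 had 0.16 in libraries 1 and 2 alone and -2.34 in libraries 3 to 6. Leaving out FI3KO library 4 or 6 or WT library 3, 4, 5 or 6 left 1 elastic fibre gene called lower in FI3KO.

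Of 9 collagen genes, 6 fell and 2 rose in FI3OE (median log2 fold change -0.09), where 16.8% of all genes were called lower and 20.2% higher, so that the count that rose is near the background. Those that fell included Col5a3 at -0.87 (edgeR adjusted p = 1.78e-07) and the abundant Col1a1 at -0.08 (adjusted p = 0.0353). Without WT library 2 or 3 of the cultures 3 collagen genes were called lower, and without FI3OE library 1 or WT library 1 a single one was called higher. In FI3KO 4 of 8 fell and none rose (median -0.42, against 18.3% of all genes lower and 19.1% higher). Col1a1 fell there by 1.82 (SE 0.41, edgeR adjusted p = 0.0043), from 1005 to 271 CPM, but it had -0.08 in libraries 1 and 2 alone and -2.78 in libraries 3 to 6. Col4a1 and Col4a2, which form the basement membrane, fell by 0.59 and 0.66 (adjusted p = 0.00167 and 0.000961), with -0.21 and -0.26 in libraries 1 and 2 alone (adjusted p = 0.133 and 0.0671). Of 10 genes that modify and fold collagen before it is secreted, 7 fell and none rose in FI3KO (median -0.40, against the same shares of all genes), led by Serpinh1, the collagen chaperone, at -0.99 (edgeR adjusted p = 0.000381), P4ha2, a prolyl hydroxylase, at -0.71 (adjusted p = 0.000882) and Plod1, a lysyl hydroxylase, at -0.63 (adjusted p = 0.000228). In libraries 1 and 2 alone these had -0.35, -0.29 and -0.36 (edgeR adjusted p = 0.0459, 0.139 and 0.0829), and in libraries 3 to 6 they had -1.27, -0.88 and -0.76. In FI3OE 2 of the 10 rose, Fkbp10 by 0.27 and Plod3 by 0.20, which is near the 20.2% of all genes called higher, and none fell, although 1 gene was called lower without FI3OE library 1 or 2.

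Of 6 matrix proteins that bind lysyl oxidases or place them on fibres, 5 rose and 1 fell in FI3OE (median log2 fold change 0.35), where 20.2% of all genes were called higher and 16.8% lower. In FI3KO 1 rose and 2 fell (median -0.88), where 19.1% were called higher and 18.3% lower. Postn, which brings Bmp1 to Lox, rose by 0.44 in FI3OE (edgeR adjusted p = 1.01e-06), as did Thbs1 (0.44, adjusted p = 1.04e-05), and fibronectin (Fn1) fell by 0.27 (adjusted p = 2.23e-05). In FI3KO Fn1 fell by 1.91 (SE 0.43, edgeR adjusted p = 0.0043), with -0.23 in libraries 1 and 2 alone (adjusted p = 0.707) and -2.93 in libraries 3 to 6. Sparc, a collagen-binding protein, fell by 0.80 (edgeR adjusted p = 0.000103), whereas Thbs1 rose by 1.32 (SE 0.34, adjusted p = 0.00938). Sparc had -0.52 in libraries 1 and 2 alone (edgeR adjusted p = 0.0164) and -0.95 in libraries 3 to 6. Thbs1 had 0.98 (adjusted p = 0.00785) and 1.56 in these sets. Without FI3KO library 2, 4 of the 6 were called lower. Of the hypoxia-induced genes, 2 of 11 rose and 3 fell in FI3OE (median 0.06), of which the count that rose is near the share of all genes. In FI3KO 2 of 9 rose and 3 fell (median 0.25), and the count that rose is again near that share. Examples in FI3KO were Pfkfb4, which fell by 0.93 but had -0.55 in libraries 1 and 2 alone (edgeR adjusted p = 0.0593), and Ndrg1, which rose by 1.08 but had -0.03 in libraries 1 and 2 alone (edgeR adjusted p = 0.825) and 2.12 in libraries 3 to 6. The hypoxia counts moved, with 1 to 4 called higher in FI3KO when any library except FI3KO library 1 was left out, and 1 called higher in FI3OE without FI3OE library 1 or 2 or WT library 2 or 3. Of the TGF-beta ligands and receptors, 1 of 6 rose and 1 fell in FI3OE, and 1 of 5 rose in FI3KO (Tgfbr3, by 0.42, but 0.18 with an edgeR adjusted p of 0.143 in libraries 1 and 2 alone), also near the shares of all genes. The count that rose in FI3OE was 2 without FI3OE library 2 or WT library 3, and without FI3OE library 1 the hypoxia genes that fell there came to 1. In the fit of all 18 libraries most FI3OE calls of these lists were lost. It called 0 of the matrix partners, 0 of the hypoxia and 0 of the TGF-beta genes in either direction, 1 elastic fibre gene and 1 modifying gene higher and none lower, and 1 collagen and 1 activation or copper gene lower and none higher. The plot of the pathway genes shows these lists. With libraries 1 and 2 of TRAP alone, the counts called lower were 0 of the collagens and 1 of the modifying genes, on 2 libraries a group.

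**Figure D5:**
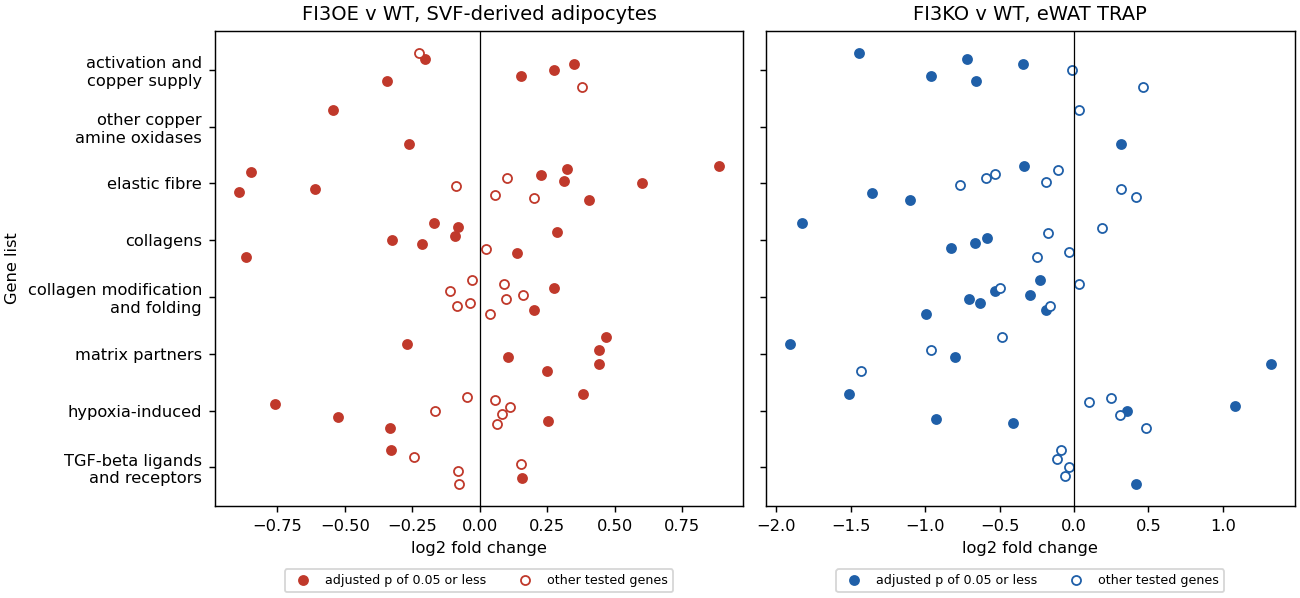
log2 fold change of the tested genes of 8 lists around the lysyl oxidases, in FI3OE against WT SVF-derived adipocytes (left) and FI3KO against WT eWAT TRAP RNA (right), with filled points for an adjusted p of 0.05 or less in edgeR and open points for the others. In FI3KO the filled points of the activation, elastic fibre, collagen and collagen modification lists all lie below 0 (5, 3, 4 and 7 genes), while in FI3OE the collagens lie on both sides (2 above and 6 below).

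The genes whose reads varied most like each member, after the mean of each group was subtracted, were sought over the 18 libraries among 11999 genes. For Loxl1 they were Lama2 (Pearson r = 0.94), Bmp1 (0.94) and Postn (0.94), the last 2 of which are on the lists above. For Loxl2 they were Klf4 (0.98), Gas7 (0.98) and Maff (0.98), for Lox Hsd17b7 (0.90), Ece1 (0.90) and Nsdhl (0.89), and for Loxl4 Sh3pxd2b (0.96), Lpin3 (0.95) and Nfil3 (0.94). For Loxl3 the closest was Ppox (0.91), on few TRAP reads. Within the family Loxl1 and Loxl2 were most alike (0.72) and Lox and Loxl3 least (-0.02). These values are descriptions without a test, and 12 of the 18 libraries are the TRAP libraries that fall into 2 sets.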

How the data were processed

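The authors trimmed reads with fastp and quantified transcripts with Salmon 1.4.0 on GRCm38, per the labels and the methods. Each deposited file holds Salmon's estimated counts, TPM and an effective length per transcript, the last used for an offset and for levels per length in alternatives. Libraries were made from rRNA-depleted RNA with a tagmentation kit and 12 PCR cycles, without strand marks. Here 117850 of 118733 transcripts were matched to GENCODE M21 genes, counts were summed per gene and rounded, and 883 unmatched transcripts (0.375% to 1.08% of reads) were kept under their own identifiers. edgeR 4.0.16 (quasi-likelihood test, TMM, filterByExpr, Benjamini-Hochberg over all genes tested) compared FI3OE with WT (n = 3 each) and FI3KO with WT (n = 6 each), after a test on simulated data. A gene was called at an adjusted p of 0.05 or less. CPM are counts relative to the library total, and TPM are the deposited values summed per gene. The copper-site stretch was found by its encoded pattern, which was loosened until all 5 genes matched and which fixed the first 4 histidines. Transcript shares were tested with exact permutation tests (scipy).

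The family, the lists, the markers, the neighbours and the TRAP replicate sets were chosen with earlier results of these data known. Named pathway genes are, per list and comparison, up to 3 called genes with the largest change and a mean log2 CPM of 1 or more, and the most abundant gene, of which not all are printed. Others in the text (markers, neighbours and Fn1 in FI3OE, for example) were picked after their values were seen. Alternatives were other normalisations, filters, DESeq2 1.42.0, blocks and libraries left out. WT TRAP libraries 1 and 2 were the closest pair (median chi-square 1.70 times that of counting noise, other TRAP pairs 2.94 to 23.3), above sampling noise, and were kept as 2 libraries.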

Additional observations from a re-analysis of the deposited data

Results flagged for a closer look

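In TRAP RNA every FI3KO library was above every WT library in libraries 1 and 2 and below every WT library in libraries 3 to 6 for Loxl2 and Loxl3. The log2 fold changes were 0.45 and -2.74 for Loxl2 and 1.07 and -0.97 for Loxl3, the latter on 4.17 to 36.2 reads per library. The difference between the sets was not tested, no label names this split, and its source was not tested. How many of all genes separate in this way was not counted, so nothing is read from the separation.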

How the results depend on the processing

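The fold changes of the 5 genes in FI3OE kept their direction in each of the 16 alternatives run per gene, and Loxl3 stayed between 2.34 and 2.43. In FI3KO they moved by less than the spread between libraries in all alternatives apart from the replicate sets. With replicates 1 and 2 only, the log2 fold change was -0.90 for Lox, -0.30 for Loxl1, 0.45 for Loxl2 (sign changed), 1.07 for Loxl3 (sign changed) and -0.81 for Loxl4. With replicates 3 to 6 only it was -1.42 for Lox, -1.85 for Loxl1, -2.74 for Loxl2, -0.97 for Loxl3 and -2.08 for Loxl4. Replicates 1 and 2 only gave 222 genes called higher and 278 lower, where fewer samples were used. In FI3OE the length offset gave 1594 genes called lower, and the fit of all 18 libraries 955 higher and 617 lower, with 1 of the 5 members (Loxl3) called in place of 4 (the cause was not tested). In that fit Lox had 0.27 (SE 0.13), Loxl2 0.22 (SE 0.44) and Loxl4 0.44 (SE 0.28). The main fit gave them 0.26 (SE 0.03), 0.21 (SE 0.05) and 0.44 (SE 0.08). With at least 10 reads in every library Loxl3 had no value in FI3KO. Of 576 alternative counts over the pathway lists, 82 differed by more than 1.5 times.

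Same-numbered libraries did not vary together (correlations of -0.042 to 0.099 in cultures and -0.35 to 0.012 in TRAP), so no pairing by number was seen. These correlations do not bear on the 2 sets of TRAP numbers, whose source was not tested. With the replicate block, 1766 genes were called higher and 1866 lower in FI3KO, 3088 and 2570 in FI3OE, and Loxl3 had 2.40 in FI3OE and -0.36 in FI3KO. The block called 3 of the 5 members lower in FI3KO, without Loxl2, which had -1.76 (SE 0.60). From its leading coding transcript alone Loxl2 had -2.27.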

Other observations

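Of the 5 promoters, the RefSeq table for GRCm38.p6 held that of Loxl4 (300 bases around its start). Neither the core of the interferon-stimulated response element nor the hypoxia response core, ACGTG, was found on either strand of it, while 3.45% and 19.7% of all 32544 promoters in the table hold them. This says only that these letters are not in this window.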
